A study of Mus musculus with 2 samples.

Results

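The Pou5f1 locus was taken as Pou5f1 with 100 kb on each side, chr17:35542982-35747721 in mm9 (204.74 kb), and was followed through its leading members, Pou5f1 and the neighbouring Tcf19. Pou5f1 lies at chr17:35642982-35647721 on the plus strand and Tcf19 at chr17:35649679-35653769 on the minus strand, with 1957 bp between them. Of 33788 deposited CTCF peaks, 18 had their summit in this region, and of 22367 protein-coding genes of GENCODE M1, 10 overlapped it. They are H2-Q6, H2-Q7 and H2-Q10 upstream of Pou5f1, then Pou5f1, Tcf19, Cchcr1, Psors1c2, Cdsn and 2300002M23Rik, and Sfta2 at the downstream edge. Below, positions are in bp from the Pou5f1 start along the plus strand, with negative values upstream, and peaks are numbered 1 to 18 in that direction.

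Both libraries came from mouse R1/E embryonic stem cells (ESCs) carrying CTCF with a GFP-containing LAP tag on a stably integrated BAC, grown with LIF and serum, and taken from GFP-sorted clones. For each, cells were fixed in 1% formaldehyde, chromatin was sheared to a mean of 500 bp, and 5 µg of either a goat GFP-antibody or goat IgG was used, with 1 library per antibody. The labels describe the control as goat IgG and also as input DNA, and ratios below treat it as an IgG ChIP. The tagged protein was made beside the cells' own CTCF, and the cell type could not be checked by marker genes, because ChIP of a factor gives no expression values.

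Pou5f1 encodes OCT4, a POU-domain transcription factor that ESCs need to stay pluripotent. Its promoter and its proximal and distal enhancers lie close together upstream of the start. Tcf19 encodes a nuclear protein with an FHA domain and a PHD finger. CTCF is a zinc finger protein that binds a long, non-palindromic motif, so each site has a direction. It is known as an insulator protein and as the place where cohesin is held, and loops between sites often join motifs that point toward each other. B2 repeats, short interspersed elements of the mouse, are known to carry copies of a CTCF motif.

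The CTCF motif was sought with a matrix made from the study's listed CTCF sequences, whose most frequent letters read TGGCCACCAGGGGGCACTA, on both strands and at an exact match probability of 1e-05 per position. A motif is called plus here where this strand is the plus strand of the chromosome, and it is drawn as pointing right. The best match within 150 bp of the summit is shown for the 3 peaks beside the H2-Q genes, for the peaks of Pou5f1 and Tcf19 and for the best match at any summit of the region, together with the match in the first coding exon of Pou5f1 and the best match outside peaks. Each is written 5′ to 3′ on the motif strand, with the 19 bases of the motif in capitals.

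peak 1, plus, chr17:35557601-35557629: tgtttCTTCCACCAGGCGGCGCCGttgcc
peak 2, plus, chr17:35571974-35572002: tgtttCTTCCACCAGGCGGCGCTGttgcc
peak 3, plus, chr17:35602808-35602836: tgtttCTTCCACCAGGCGGCGCTGttgcc
peak 6, plus, intron of Pou5f1, chr17:35645384-35645412: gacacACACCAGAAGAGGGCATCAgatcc
peak 7, minus, coding exon of Pou5f1, chr17:35646419-35646447: ccactTCTCCAGCAGGGGCCGCAGcttac
peak 8, minus, intron of Tcf19, chr17:35651012-35651040: ggcagAAGCCAGAAGAGGGCACTGggttc
peak 12, plus, between Psors1c2 and Cdsn, chr17:35681814-35681842: tcaaaCGGCCACCAGAGGGCAGCCtagag
no peak, plus, coding exon of Pou5f1, chr17:35643076-35643104: tctcaCCCCCACCAGGTGGGGGTGatggg
no peak, plus, between genes, chr17:35720016-35720044: actgcTGGCCACAAGAGGGCACCAgatcc

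The CTCF library held 8391191 tags and the IgG library 7988889 tags of 35 bp. Upstream of Pou5f1 only 39.1% of positions began a 35-base word that occurs 1 time in the genome, against 87.0% in Pou5f1 and 91.8% downstream of it. Windows of 10 kb held 0 to 37 IgG tags, with a median of 23 against 32 on chromosome 17. In the windows starting at -100000 and -60000 bp, the libraries together held 0 and 2 tags, so CTCF binding was not detectable there. Neither library has a replicate, and all intervals below are exact 95% intervals for counting error between these libraries.

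**Figure D1:**
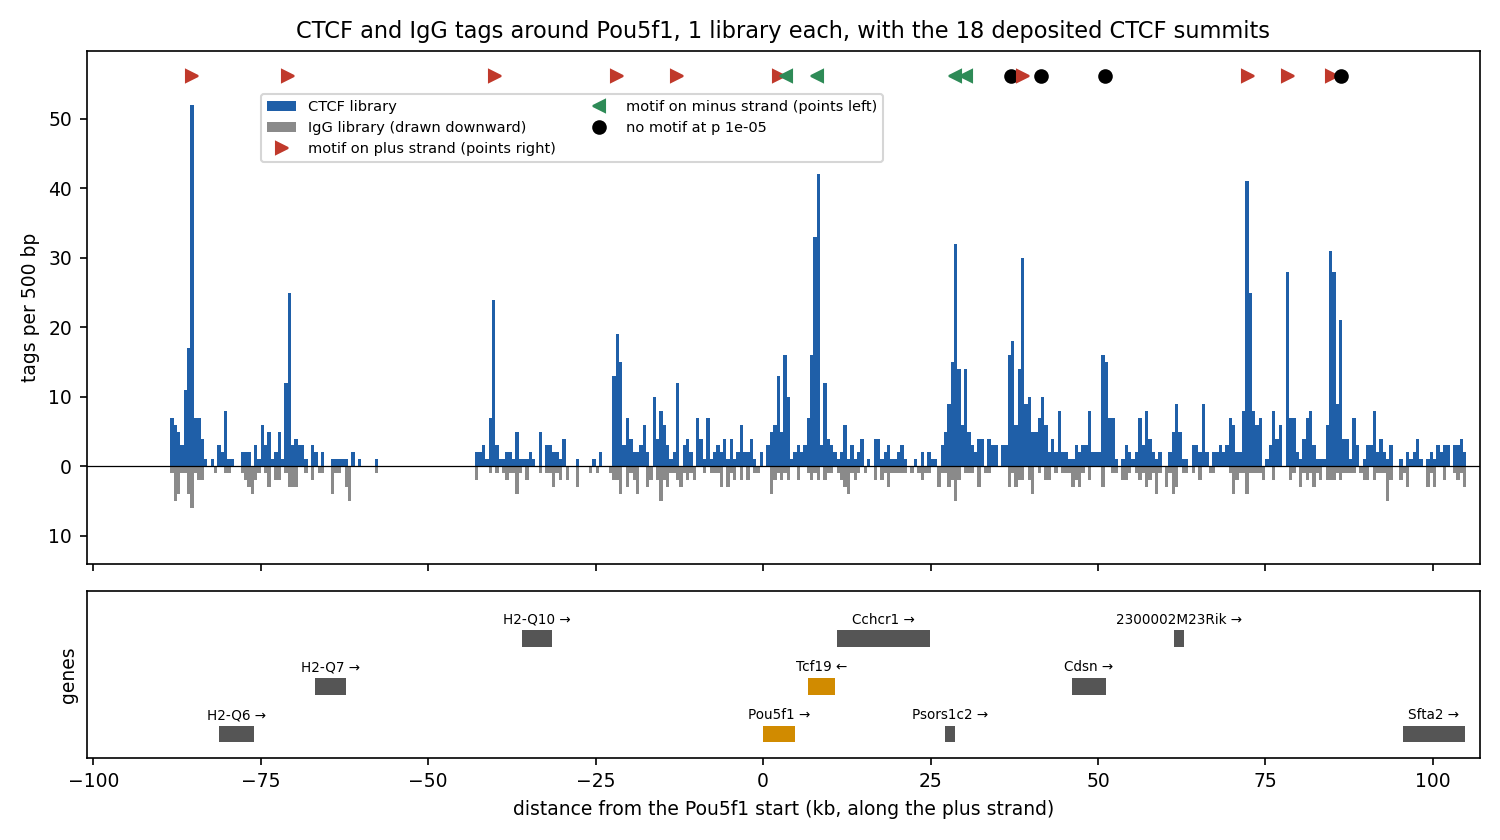
Tags per 500 bp of the CTCF library (blue, upward) and the IgG library (grey, downward) by distance from the Pou5f1 start in kb, with the summits of the 18 deposited peaks as arrowheads for the motif direction (black dots, no motif) and the protein-coding genes below. The arrowheads point right at peaks 1 to 6, left at peaks 7 to 10 and right again at peaks 12 and 15 to 17, and both libraries are empty over stretches of the H2-Q side.

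CTCF peaks lay inside Pou5f1 and Tcf19 and not within 1 kb of their gene starts, taken as the outermost annotated start of each gene. Shorter annotated transcripts of Pou5f1 begin at 1445 bp, between 2768 and 2784 bp and at 3348 bp. The summits of peaks 6 and 7, at 2395 and 3453 bp, lie near these inner starts, which were not counted. Pou5f1 held the summits of peaks 6 and 7, Tcf19 held that of peak 8, the highest of the region, and the nearest summit to the Pou5f1 start was peak 6, at 2395 bp. Of the 10 genes, 0 had a summit within 1 kb of the start, against 7.91% of all protein-coding genes. Of protein-coding genes between 2 and 10 kb long, as Pou5f1 is with 4740 bp, 14% held at least 1 summit and 1.47% held at least 2.

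Peak 6 lay at chr17:35644942-35645664, with its summit at 2395 bp in intron 1 of Pou5f1. Its height, the number of overlapping tags at the summit, was 10, among the lowest of the region. It held 15 CTCF tags and 3 IgG tags, which after scaling for depth is a ratio of 4.76 (1.35 to 25.7). This ratio depended on where the tags were placed, as it was 15.2 (2.37 to 639) with tags left at their 5′ ends, and within 150 bp of the summit there were 11 CTCF tags and 0 IgG tags. In this peak, 71.8% of 35-base words were unique. Motifs of both directions lay within 150 bp of the summit, the better match on the plus strand at 2416 bp and the other on the minus strand at 2454 bp. The 19 bases of the better match occurred 11700 times in the genome, and 306 of these copies, 2.62%, lay in a deposited CTCF peak. The copy in the intron was 1 of these 306. Of all motif matches on chromosome 17, 13.1% lay in a peak. On how many of the copies 35 bp tags can be placed was not measured, so the low share cannot be read as lack of binding.

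Peak 7 lay at chr17:35646161-35646841, with its summit at 3453 bp in coding exon 3 of Pou5f1. Its height was 18, and it held 26 CTCF tags against 2 IgG tags, a ratio of 12.4 (3.10 to 108). The minus-strand motif had its centre 2 bp from the summit and lay in the exon itself, and 99.9% of the 35-base words of the peak were unique. The same 19 bases occurred 3 times in the genome. The copies on chromosome 3 from 129137140 to 129137158, nearest to Elovl6, and on chromosome X from 50232889 to 50232907, in Gm6539, lay in no CTCF peak.

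Peak 8 lay at chr17:35649632-35651448, with its summit at 8096 bp in intron 3 of Tcf19, 2691 bp from the Tcf19 start. It had the greatest height of the region, 39, and the highest MACS score, 681.67, where the score is -10 times the log10 of the p-value of the peak. Only 118 peaks of the genome were higher and 60 had a higher score. It held 97 CTCF tags and 6 IgG tags, a ratio of 15.4 (6.82 to 43.0), and 12.8% of the CTCF tags of all 18 peaks. Its minus-strand motif, a close match with a match probability of 7.18e-09, had 55 CTCF tags and 2 IgG tags within 150 bp. A weaker plus-strand match at 7382 bp, inside the same peak, had 13 CTCF tags and 1 IgG tag. The 19 bases of the main motif occurred 65 times in the genome, and 22 of these copies, 33.8%, lay in peaks, against 13.1% of motif matches on chromosome 17. Here too the placing of tags on the copies was not measured.

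**Figure D2:**
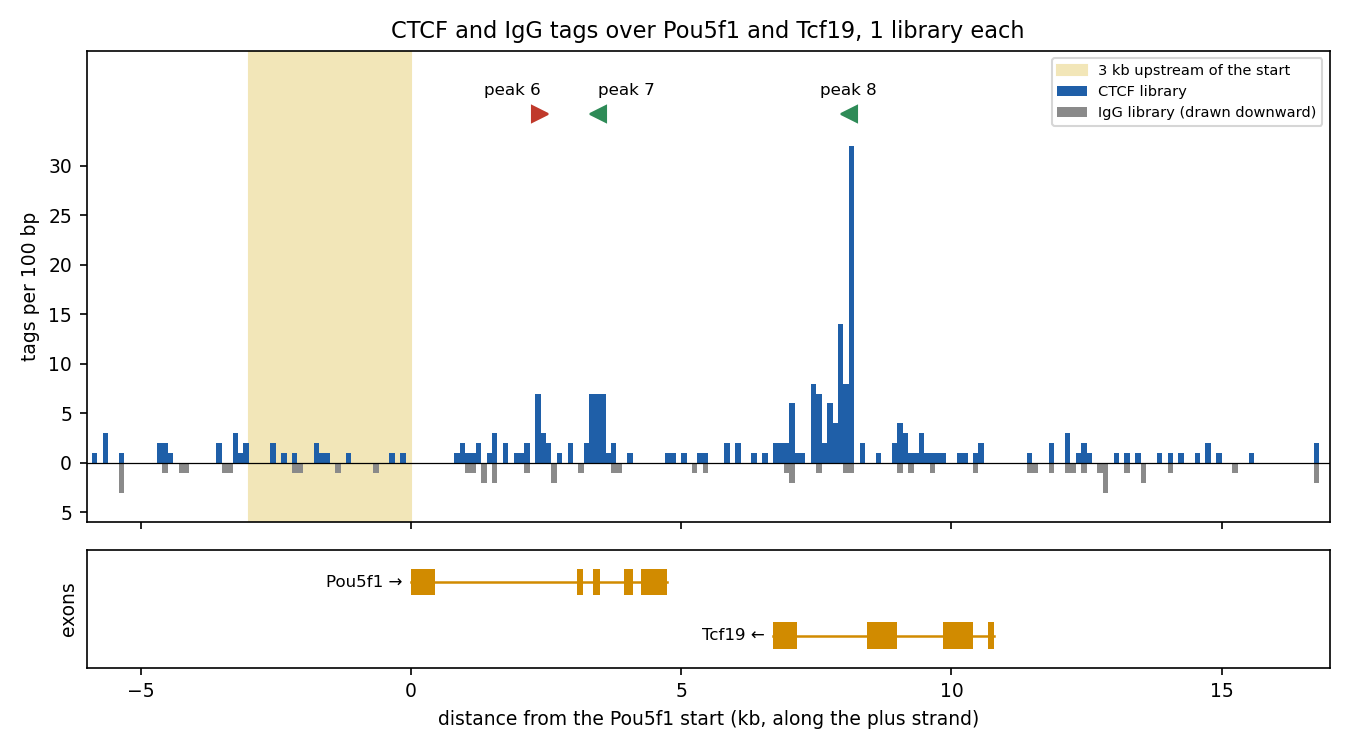
Tags per 100 bp of the CTCF library (blue, upward) and the IgG library (grey, downward) over Pou5f1 and Tcf19 by distance from the Pou5f1 start in kb, with the exons of the longest transcript of each gene as boxes and the 3 kb upstream of Pou5f1 shaded. CTCF tags rise at peak 6 in intron 1, at peak 7 in exon 3 and at peak 8 in Tcf19, and stay low over the shaded stretch and both gene starts.

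At gene starts the question was whether CTCF lies at the promoters of the locus, with only the outermost annotated start of each gene used. Within 1 kb of the Pou5f1 start there were 5 CTCF tags and 1 IgG tag, a ratio of 4.76 (0.533 to 225), with an adjusted p of 0.613 in the two-sided exact binomial test, Benjamini-Hochberg adjusted over 21619 gene starts. Within 1 kb of the Tcf19 start there were 7 and 3 tags, a ratio of 2.22 (0.507 to 13.3) with an adjusted p of 0.750 in the same exact test. None of the 10 genes had a start called, against 10.4% of all starts with more CTCF and 0.241% with more IgG tags, and a difference at these starts was not detectable at this depth. Within 1 kb of the H2-Q6 and H2-Q7 starts only 32.6% and 35.3% of 35-base words were unique, against 93.8% or more at the other starts. Without adjustment, the exact p was 0.0396 at H2-Q6, with 8 and 1 tags, and 0.0448 at Psors1c2, with 18 and 7 tags, and above 0.05 at the other 8 starts. The start of Cchcr1, which faces that of Tcf19 276 bp away, had 8 CTCF tags and 4 IgG tags, and those of H2-Q7, H2-Q10, Cdsn, 2300002M23Rik and Sfta2 had ratios between 0.476 and 2.12.

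The window decided this call. Within 2500 bp the Pou5f1 start had 36 CTCF tags and 11 IgG tags, a ratio of 3.12 with an adjusted p of 0.00484, and the Tcf19 start 37 and 15 tags, with an adjusted p of 0.0289, both in the exact binomial test, against 18.8% of starts called at that width. A window of 2500 bp reaches the summit of peak 6 at 2395 bp from the Pou5f1 start, and it leaves the summit of peak 8, 2691 bp from the Tcf19 start, just outside.

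The 3 kb upstream of Pou5f1, where its enhancers lie, held 11 CTCF tags and 4 IgG tags, a ratio of 2.62 (0.776 to 11.3). From the start outward, each kb held 2, 5 and 4 CTCF tags against 1, 1 and 2 IgG tags. No peak fell there, and the motif match at -2793 bp had 0 tags of either library within 150 bp. The match at 108 bp, in the first coding exon of Pou5f1, likewise had 0 tags of either library, although 94.7% of the 35-base words around it were unique. Over the whole of Pou5f1 there were 59 CTCF tags and 12 IgG tags, a ratio of 4.68 (2.49 to 9.57). Outside peaks 6 and 7 the gene held 18 and 7 tags, a ratio of 2.45 (0.976 to 6.93). Tcf19 held 121 and 10 tags, a ratio of 11.5 (6.05 to 24.6), and outside peak 8 it held 24 and 4 tags, a ratio of 5.71 (1.96 to 22.7). Between the genes there were 11 CTCF tags and 2 IgG tags, a ratio of 5.24 (1.14 to 48.6).

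The remaining 15 peaks lay 5 upstream of Pou5f1 and 10 downstream of Tcf19. Over all 18 peaks the heights ran from 10 to 39 with a median of 17.5, against a median of 13 over all peaks of the genome, and the scores from 53.57 to 681.67 with a median of 200.46, against 116.96, so that 14 of the 18 lay above the median of all scores, as by definition do 50% of all peaks. Their CTCF tags ran from 13 to 97 and their IgG tags from 0 to 12. Together they held 760 CTCF tags and 74 IgG tags, a ratio of 9.78 (7.69 to 12.6), against 8.74 over all peaks. All 18 had an interval above 1, as had 99.3% of all peaks, and all 18 passed a recount at p 1e-05 in 300 bp around the summit, as did 85.5% of all summits. These ratios describe the peaks and test nothing, since the peaks were called on the same libraries.

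Peaks 1 to 3 lay beside the H2-Q genes, class I genes of the major histocompatibility complex (MHC) that arose as tandem copies. Peak 1 at -85273 bp had a height of 35 and held 86 CTCF tags and 12 IgG tags, a ratio of 6.82 (3.71 to 13.7). Peak 2 at -70981 bp had a height of 23 and held 37 and 4 tags, a ratio of 8.81 (3.16 to 34.0). Peak 3 at -40095 bp, in an exon of the noncoding Gm20527, had a height of 16 and held 28 and 1 tags, a ratio of 26.7 (4.41 to 1090). The summits stood at matching places, at -4086 bp from the start of H2-Q6, -4099 bp from that of H2-Q7 and -4147 bp from that of H2-Q10. The motifs printed above are identical at peaks 2 and 3 and differ by 1 of 19 bases at peak 1. The 301 bases compared at these sites were 78.4% identical between peaks 1 and 3, 75.1% between peaks 1 and 2 and 71.4% between peaks 2 and 3. Among the 14 peaks with a motif, the next most alike pair, peaks 5 and 6, shared 47.8%. The 19 bases of peaks 2 and 3 occurred 6 times in the genome, all on chromosome 17, and all 6 lay in a deposited peak. The other copies lay at 34119292 and 34140572, on the minus strand near Gm4152 and H2-K1, and at 35432949 and 35526927, on the plus strand near Gm18734 and H2-Q8. Only 64.4%, 44.1% and 70.9% of 35-base words were unique in peaks 1 to 3, and the part of repeated words in their tag counts was not tested.

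Peaks 4 and 5 stood between H2-Q10 and Pou5f1. Peak 4 at -21808 bp had a height of 14 and held 47 CTCF tags and 8 IgG tags, a ratio of 5.59 (2.62 to 13.7), and its 19-base motif occurred nowhere else in the genome. Peak 5 at -12837 bp, the nearest peak upstream of Pou5f1, had the lowest score of the region, 53.57, and held 14 and 3 tags, a ratio of 4.44 (1.24 to 24.1). Its motif differed from that of peak 6 by 1 base and occurred 486 times in the genome, with 13 copies, 2.67%, in peaks. The placing of tags on these copies was not measured either.

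Downstream of Tcf19 no peak stood over Cchcr1, a centrosomal coiled-coil gene, and peak 9 was 20493 bp from peak 8. Peaks 9 and 10 stood at Psors1c2, at 28589 bp in a UTR exon of that gene and at 30218 bp just past its end, and held 53 and 23 CTCF tags against 7 and 1 IgG tags, with ratios of 7.21 (3.27 to 18.8) and 21.9 (3.56 to 902). Peaks 11 to 13 lay between Psors1c2 and Cdsn, at 37072, 38811 and 41521 bp. Peak 12 was the strongest of them, with a height of 22, 57 CTCF tags and 5 IgG tags, a ratio of 10.9 (4.39 to 34.7), and the motif closest to the matrix of any summit in the region, at a match probability of 1.502e-09. Peak 11 held 37 and 6 tags, a ratio of 5.87 (2.46 to 17.02). Peak 13 held 13 CTCF tags and 0 IgG tags. With a floor of 3 IgG tags in place of 0 the ratio is 4.13, which is not a lower bound, as the exact interval begins at 2.90. Peak 14 at 51025 bp stood in a UTR exon of Cdsn, which encodes the skin adhesion protein corneodesmosin, and held 31 and 2 tags, a ratio of 14.8 (3.75 to 127).

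The last 4 peaks lay between 2300002M23Rik and Sfta2. Peak 15 at 72432 bp had a height of 29, 73 CTCF tags and 7 IgG tags, a ratio of 9.93 (4.58 to 25.6), and motifs of opposite strands, with centres at 72340 and 72393 bp, within 150 bp of its summit. Peak 16 at 78387 bp had a height of 17 with 35 CTCF tags and 0 IgG tags. Its ratio is 11.1 with the same floor, and the exact interval begins at 8.57. Peak 17 at 84959 bp had a height of 32, 63 CTCF tags and 5 IgG tags, a ratio of 11.996 (4.88 to 38.2). Peak 18 at 86286 bp, 1327 bp from peak 17, held 25 and 2 tags, a ratio of 11.9 (2.97 to 104). The outermost summits of the region were 14727 and 18453 bp inside its edges, and the next summits beyond were 16027 bp outside on the left, with a height of 11, and 23551 bp outside on the right, with a height of 14.

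**Figure D3:**
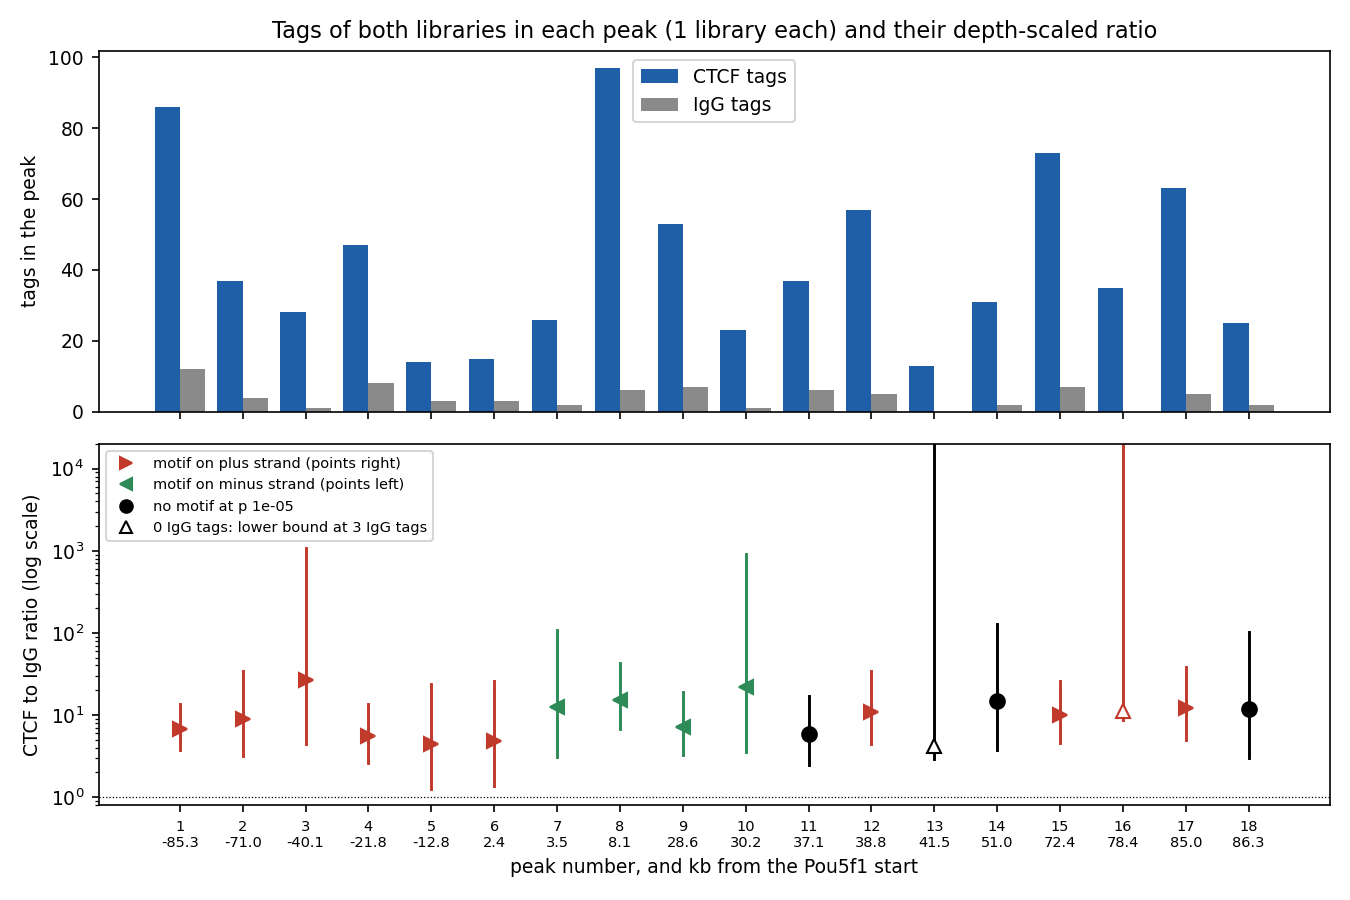
CTCF tags (blue) and IgG tags (grey) in each of the 18 peaks (top), and the depth-scaled CTCF to IgG ratio on a log axis with its exact 95% interval for counting error (bottom), coloured and shaped by motif direction. Where the peak held 0 IgG tags, the interval is open upward and an open triangle gives the ratio at a floor of 3 IgG tags. The key calls this a lower bound, but the exact interval begins below it. Peak 8 holds the most CTCF tags, 97, peaks 5 and 6 have the lowest ratios, 4.44 and 4.76 (15.2 for peak 6 with tags left at their 5′ ends), and every interval lies above the dotted line at 1.

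By the best match at each summit, motif direction changed inside Pou5f1 and again beyond Psors1c2. Within 150 bp of the summit, 14 of 18 peaks had a motif, against 73.6% of all summits, and peaks 11, 13, 14 and 18 had none. Peaks 6 and 15 had at least 2 motifs there, as had 3.33% of all summits. Of the 14, 10 pointed along the plus strand and 4 along the minus strand, whereas 49.8% of summit motifs of the genome were plus. The 6 most upstream peaks were plus, peaks 7 to 10 were minus, and peaks 12, 15, 16 and 17 were plus. Of 13 neighbouring pairs of peaks with a motif, 11 had the same direction, against 50.1% of pairs in the genome. The 11 include the pairs among peaks 1 to 3, which carry nearly the same motif and are not separate cases. The 1 convergent pair, in which motifs point toward each other, was peaks 6 and 7 inside Pou5f1, with summits 1058 bp apart, and the 1 divergent pair was peaks 10 and 12 beyond Psors1c2, against 24.9% of pairs of either kind in the genome. Peak 6 also carried the minus match given above, which is weaker. At a match threshold of 1e-06, peaks 1 to 3, 7, 9 and 17 had no motif, so that the pair inside Pou5f1 was lost and the change from plus to minus lay between peak 6 in Pou5f1 and peak 8 in Tcf19. At peak 15 the best match within 50 bp of the summit was the minus one, which would place a further change of direction there. Within 50 bp only 10 peaks had a motif, 7 plus and 3 minus, and those of peaks 1, 3, 8 and 9 were lost. Motif and summit lay a median of 35 bp apart and at most 94 bp apart.

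Summits stood close together. The median gap between neighbouring summits was 6854 bp, against 25632 bp in the genome, with a largest gap of 30886 bp between peaks 2 and 3. Of 17 gaps, 4 were under 2 kb, against 7.47% in the genome, and they were those between peaks 6 and 7, 9 and 10, 11 and 12, and 17 and 18. Pou5f1 had 18 summits, and 1.53% of protein-coding genes, itself included, had at least that many when each was given the same flanks, where the median gene had 5 and the quartiles were 2 and 9. Tcf19, with flanks of its own, took in the same 18. Nanog, the homeobox gene of the pluripotency network, had 19 summits with heights of 7 to 49 and a median of 13, and Sox2, the partner of OCT4, had 7 with heights of 9 to 16 and a median of 10. At Nanog 13 summits had a motif, 7 plus and 6 minus, and at Sox2 2 had a motif, both minus. Sox2 held 0 summits between its start and end and Nanog 2, as did Pou5f1.

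Among 16 genes of the pluripotency network, the median was 8 summits, from 0 at Nr0b1, an orphan nuclear receptor, to 19 at Nanog, and Nanog was the only gene of the list with more than Pou5f1. A summit lay between the start and end of 7 of the 16, against 36% of all protein-coding genes, with no account taken of gene length. Of their starts 1 was called, that of the T-box gene Tbx3, with 12 CTCF tags and 1 IgG tag, a ratio of 11.4 (1.69 to 488) and an adjusted p of 0.0364 in the exact binomial test. This share is no higher than the 10.4% of all starts.

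**Figure D4:**
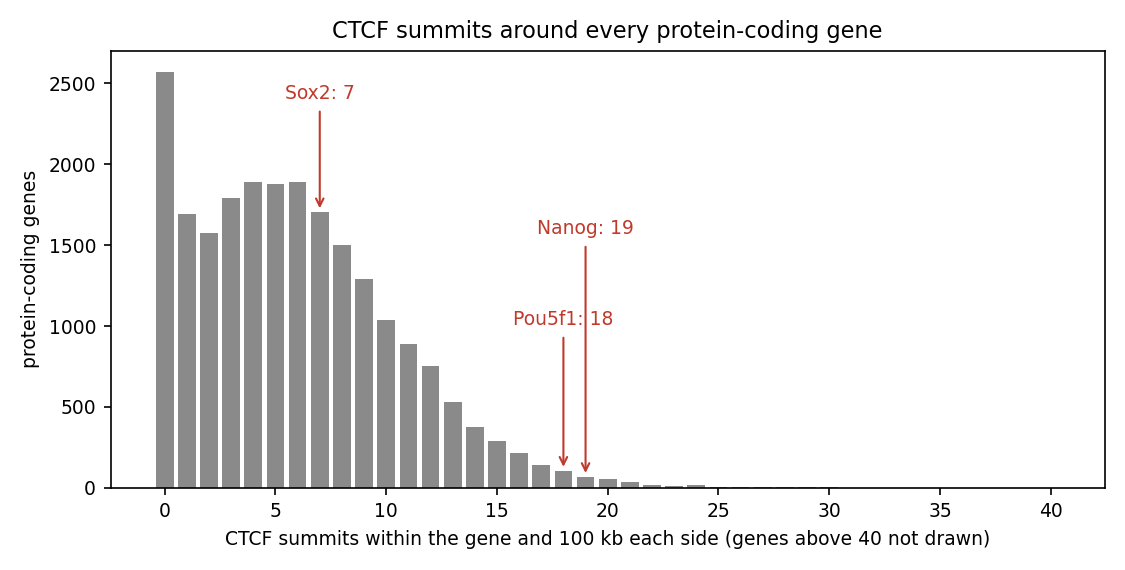
Number of protein-coding genes by the number of deposited CTCF summits within the gene and 100 kb on each side, with Pou5f1, Nanog and Sox2 marked. Pou5f1 with 18 and Nanog with 19 stand in the upper tail and Sox2 with 7 stands close to the median of 5.

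Outside its peaks the region still held more CTCF than IgG tags. There were 822 CTCF tags and 357 IgG tags, a ratio of 2.19 (1.93 to 2.49), against 0.897 outside peaks over the genome. Among 21818 genes with at least 100 IgG tags outside peaks in the same flanks, the median ratio was 1.07 and the quartiles were 0.880 and 1.32, and Pou5f1 stood at percentile 99.9. Nanog had 1.67 (1.51 to 1.84) and Sox2 1.16 (1.05 to 1.28). The ratio was 1.84 (1.505 to 2.25) upstream of Pou5f1, where few words were unique, and 2.46 (2.08 to 2.91) downstream. Further than 500 bp from any peak it was 2.06 (1.80 to 2.36), and further than 500 bp from any peak or motif match it was 1.74 (1.48 to 2.04). Fewer IgG tags also came with it, 21.1 per 10 kb against 32.5 at Nanog and 36.4 at Sox2, and their part in the ratio was not tested.

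The region was rich in CTCF motifs. At the same threshold it held 77 matches, 37.6 per 100 kb against 11.6 on chromosome 17, and 21 of them, 27.3%, lay in a deposited peak, against 13.1% on chromosome 17. The 21 had between 2 and 55 CTCF tags within 150 bp, with a median of 21. The other 56 had between 0 and 9, with a median of 2. Together the 56 had 150 CTCF tags and 20 IgG tags, a ratio of 7.14 (4.46 to 12.03), against 2.16 (2.10 to 2.22) at the motifs of chromosome 17 outside peaks. The best match of the region, at 77048 bp with a match probability of 2.08e-10, lay in no peak and had 9 CTCF tags and 0 IgG tags. With a floor of 3 IgG tags in place of 0 the ratio is 2.86, which is not the end of an exact interval. Of the 56, 12 had no tag of either library, and 9 of these lay upstream of the Pou5f1 start. The matches outside peaks on that side had a median of 46.8% unique 35-base words around them, against 94.7% on the other side. Several matches without tags had no unique word around them, so that their lack of tags says nothing about binding.

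Many of these matches had the same middle. The 12 bases CCAGAAGAGGGC were the most frequent letters at this place among the 77 matches of the region. The most frequent letters of the matrix differ from them. The 12 bases were held by 32 of the 77 matches, those of peaks 5, 6 and 8 among them. On chromosome 17 they were held by 20.7% of the matches. Because the 12 bases were chosen from the matches of the region, their higher share there is not a test. Of the 32, 7 lay in peaks, and of the 45 with other letters, 14 did. On chromosome 17, 12.2% of the matches with these 12 bases and 13.3% of the others lay in peaks. Whether the matches lie in B2 repeats was not tested, since no repeat annotation was used. The 25 such matches outside peaks had 70 CTCF tags and 6 IgG tags within 150 bp, a ratio of 11.1 (4.85 to 31.3).

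**Figure D5:**
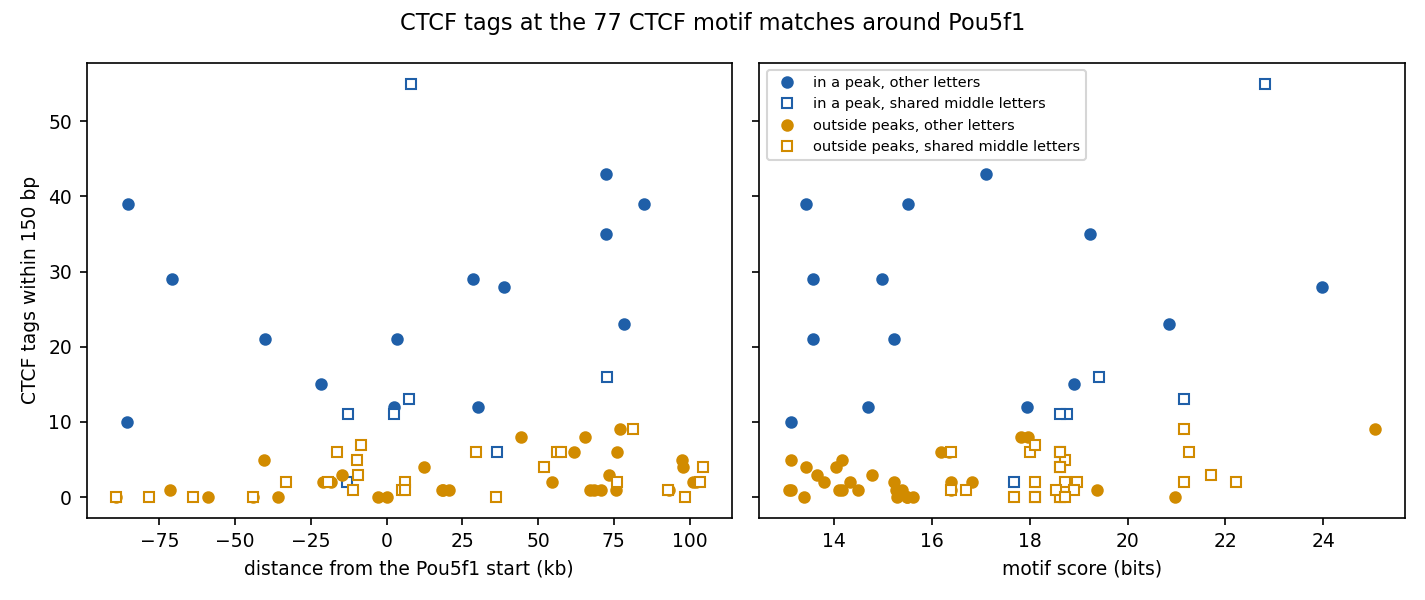
CTCF tags within 150 bp of each of the 77 CTCF motif matches of the region, by distance from the Pou5f1 start in kb (left) and by motif score in bits, the log2 odds of the match against the base composition (right), in peaks (blue) and outside peaks (orange), with open squares for matches that hold the shared 12 middle bases. The match of peak 8 has 55 tags, matches outside peaks have 9 at most, and the scores of matches in and outside peaks overlap.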

How the data were processed

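CTCF ChIP-seq of R1/E ESCs was analysed from 1 CTCF and 1 IgG library. The authors deposited 1 line per aligned 35 bp tag in mm9, each with a count of 1 and without normalization, and the aligner is not given in the sources used here. For the CTCF library, the authors deposited MACS peaks (version 1.4 in the submitters' processing notes) with a score (the log10 of the p-value times -10), and summits whose signal is the tag pileup height.

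In Python 3.11.15 (pysam 0.24.0, pandas 2.3.3, scipy 1.17.1, numpy 2.4.6, matplotlib 3.10.9), tags were shifted 92 bp in the direction of the read (fragment length 184 bp at the 1000 highest scoring peaks) and counted. Ratios were scaled by 8391191 CTCF and 7988889 IgG tags, with exact 95% Clopper-Pearson intervals and a floor of 3 counts, both for counting error only. PCR copies cannot be told from separate molecules without molecular identifiers, but no position and strand was repeated. Gene starts with at least 1 tag were tested by a two-sided exact binomial test with Benjamini-Hochberg adjustment, which compares the 2 libraries and not conditions. The recount was a one-sided Poisson probability in 300 bp, against the largest IgG rate over the genome (effective size 1870000000, as in the header of a supplementary table), 1, 5 and 10 kb. The motif matrix came from the 192 CTCF sequences of a supplementary sheet held in part, a pseudocount of 1 in each column and a background of 0.21 each for G and C and 0.29 each for T and A. Sequence was that of NCBI m37 (mm9) and genes those of GENCODE M1; Tfcp2l1 is listed there as Tcfcp2l1. Copies of motifs and unique 35-base words were counted over the whole genome on both strands.

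Named genes were all protein-coding genes overlapping the region, every peak of the region, Nanog and Sox2, and of the 16 pluripotency genes those with a called start and those with the most and fewest summits. The genes near motif copies and the single motif matches were named after their values were seen. Members and lists were chosen with earlier results of these data known. Scripts were tested on simulated data. Alternatives varied the score and motif thresholds, the region, the windows, the scaling, the tag position, the matrix and the background. RAD21 data were not analysed here.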

Additional observations from a re-analysis of the deposited data

How the results depend on the processing

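Leaving out a replicate was not possible with 1 library per antibody. No paired analysis was possible because each antibody has 1 library. Of 37 alternatives to the values answering a comparison, 28 changed neither direction nor call and moved counts by at most 1.5 times. Of 88 alternatives for single peaks, starts and segments, 3 gained a call (H2-Q6, Cchcr1 and Psors1c2 within 2500 bp) and 17 moved a ratio by over 1.5 times, 7 of them at peaks. Among these were peak 6 at 15.2 with tags not shifted and peak 17 at 37.1 within 150 bp of the summit. At uncalled starts, 5 ratios crossed 1, for Cchcr1 within 500 bp, for Cdsn and Sfta2 within 2500 bp, and for H2-Q10 within 2500 bp and with tags not shifted. Another 17 values for single peaks and starts had no finite ratio, such as that of the Pou5f1 start within 500 bp, and are not in these counts. Within 150 bp of the summits the ratio over the peaks was 20.5 in place of 9.78. Called gene starts numbered 1101 within 500 bp and 4103 within 2500 bp, in place of 2252 within 1 kb, and within 2500 bp the ratios were 3.12 at Pou5f1 and 2.35 at Tcf19, both called. At a motif threshold of 1e-06, 8 in place of 14 peaks had a motif. Those of peaks 1 to 3, 7, 9 and 17 were lost, and with peak 7 the convergent pair inside Pou5f1. At that threshold 27 in place of 56 matches lay outside peaks. Within 50 bp of the summit 10 peaks had a motif, with those of peaks 1, 3, 8 and 9 lost and the direction at peak 15 changed. The percentile of Pou5f1 by peaks was 99.4 with scores of at least 100 and 95.1 with flanks of 200 kb, in place of 98.5. As alternatives chosen after seeing the data, 12 peaks had at least 90% unique 35-base words, and their ratio was 11.8 (8.64 to 16.5).

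Depth limits the stretches with few tags. The 3 kb upstream of Pou5f1 held 15 tags of both libraries in all, so its interval includes a ratio of 1, and peaks with 0 to 3 IgG tags have ratios with wide intervals. Upstream of Pou5f1 most 35-base words are repeated, so peaks may lie in stretches that hold no tags. Variation between cultures was not measured.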
